A study of Mus musculus with 21 samples.

Results

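Peaks of the p53 antibody were examined at 8 mouse genes for secreted growth factors and cell surface receptors: Areg, Lif, Met, Fgfr2, Ptk7, Lrp1, Nectin1 and Antxr1. A peak belonged to a gene where the deposited annotation named that gene or where the peak lay within 5 kb of its RefSeq span. The rule gave 18 of the 2127 peaks on the list labelled WT-specific, 27 of 6811 peaks in p53 wild-type cells and 7 of 9784 peaks in p53 knockout cells. The genes were chosen by their WT-specific peaks in these same lists. Peak presence, number, width, placement, repeats and KO overlap are therefore given below as description and not as evidence.

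The cells were ID8, an immortalized and untreated C57BL/6 line from mouse ovarian surface epithelium, either Trp53+/+ (WT) or Trp53-/- (KO). Protein-DNA contacts were mapped by CUT&RUN, in which an antibody brings a nuclease to its target so that nearby DNA is cut free and sequenced. Of 21 samples in the series, 2 WT and 2 KO samples carried the p53 antibody, and the labels do not say whether the samples of a genotype were separate cultures or how many clones the KO line holds. Each genotype has 1 deposited list, so none of the values has a replicate error and samples could not be tested against each other. The lists hold positions with no height or score, and read depth is unknown. The KO list is the background of the same antibody in cells that lack p53. Peak lists give contacts and not expression, so epithelial identity was not checked.

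The transcription factor p53 binds DNA as a tetramer to paired half-sites and, when stabilized by stress, activates genes of arrest, death and repair. It also contacts genes that cells use to signal to each other. Growth factors of the EGF and LIF families bind receptors on the same or a neighbouring cell, receptor tyrosine kinases such as Met and Fgfr2 carry such signals inward in epithelia, and nectins and related surface proteins hold epithelial cells together. Lif is an established p53 target, known for its part in embryo implantation.

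Of the 18 WT-specific peaks, 13 were annotated as intronic, 4 as promoter and 1 as 5' UTR. The 3 genes with a single peak, Areg, Lif and Met, had it in the promoter class. The other 5 genes had 3 peaks each, and only Ptk7 among them had one in the promoter class. All 18 intervals were identical to a WT peak, as were 2114 of all 2127 WT-specific peaks (99.4%). A KO peak overlapped 2 of the 18, against 71 of the 2127 (3.34%).

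In 3 of the genes the promoter peak reached the RefSeq promoter window, which runs from 250 bases before to 50 after the gene start. The 250 bases before the start are shown for these 3 because they are the sequence that the peaks touch. They are from RefSeq on GRCm38.p6, the assembly of mm10, read 5′ to 3′ on the strand of the gene, and capitals mark the bases that lie inside the WT-specific peak. Matching by symbol gave a promoter window for 6 of the 8 genes.
Met, chr6:17463707-17463956, plus strand: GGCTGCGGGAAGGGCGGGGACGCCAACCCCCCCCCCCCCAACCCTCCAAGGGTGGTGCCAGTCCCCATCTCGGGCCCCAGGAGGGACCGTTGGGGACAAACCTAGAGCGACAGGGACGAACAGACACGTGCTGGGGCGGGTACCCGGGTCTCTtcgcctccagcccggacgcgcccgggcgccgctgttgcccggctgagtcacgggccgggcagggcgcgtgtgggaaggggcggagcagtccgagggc
Ptk7, chr17:46629505-46629754, minus strand: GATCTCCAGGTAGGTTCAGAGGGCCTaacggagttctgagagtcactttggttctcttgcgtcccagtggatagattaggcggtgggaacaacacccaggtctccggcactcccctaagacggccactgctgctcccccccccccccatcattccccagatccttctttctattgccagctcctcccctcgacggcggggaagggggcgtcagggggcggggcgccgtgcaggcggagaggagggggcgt
Areg, chr5:91139349-91139598, plus strand: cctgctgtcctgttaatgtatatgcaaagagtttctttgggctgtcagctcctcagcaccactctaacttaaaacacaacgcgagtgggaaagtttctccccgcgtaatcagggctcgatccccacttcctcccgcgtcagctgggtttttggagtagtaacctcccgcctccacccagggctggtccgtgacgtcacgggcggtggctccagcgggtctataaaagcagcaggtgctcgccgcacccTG

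The Met peak covered 153 of the 300 window bases, all of them before the gene start. Ptk7 had 26 window bases in its peak, at the far upstream edge. Areg had 52, of which 2 came before the start. The windows of all 3 were rich in G and C, at 75.7% for Met, 66.0% for Ptk7 and 59.3% for Areg, where the median of 32851 RefSeq windows was 52.7%. The windows that no WT-specific peak reached had 67.7% for Lrp1, 63.7% for Lif and 43.7% for Fgfr2. The p53 half-site of 10 bases, which reads the same on both strands, had no exact match in any of the 6 windows, and 8.36% of all windows held one. With 1 mismatch allowed outside the central C and G, 1 of the 6 windows held a match, against 50.9% of all windows. It was Areg, at chr5:91139527-91139536, 72 bases before the start and outside the peak. No pair of half-sites with up to 13 bases between them and 2 mismatches over both was found in the 6 windows, and 4.09% of all windows held one. These matches describe letters in the windows only. The windows do not cover the peaks in full, and peak sequence outside them was not used here.

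**Figure D1:**
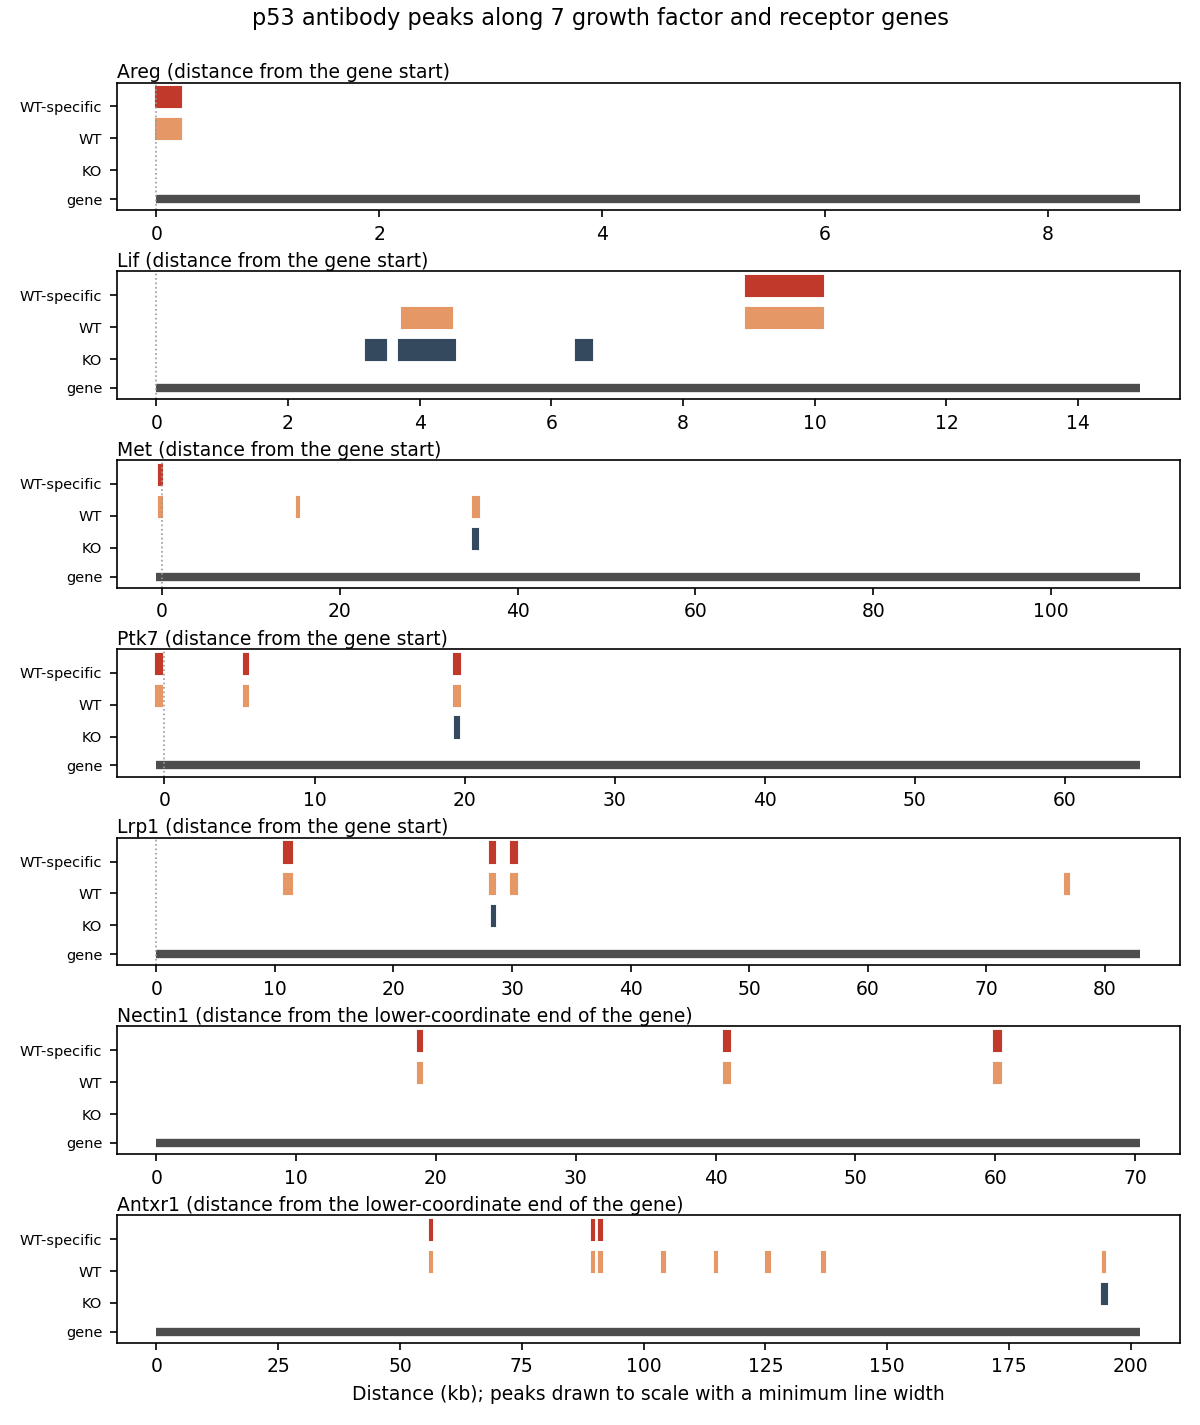
Map of the p53 antibody peaks along 7 of the 8 genes, with distance in kb on each horizontal axis and 1 row each for the WT-specific, WT and KO lists above the gene (grey bar). Zero is the gene start (dotted line) where RefSeq gives a promoter window and otherwise the lower-coordinate end of the gene. Areg, Met and Ptk7 have a WT-specific peak at the start, Areg and Nectin1 have no KO peak, and Antxr1 has 8 WT peaks of which 3 are WT-specific.

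Areg encodes amphiregulin, a ligand of the EGF receptor that is shed from the cell surface. Its gene is the shortest of the 8 (RefSeq gene 11839, chr5:91139599-91148432, 8.83 kb). A single WT peak of 217 bp, at chr5:91139597-91139813, began 2 bases before the gene start and was also WT-specific. It held no repeat, and no KO peak lay within 5 kb of the gene. The nearest KO peak was 29.1 kb from the peak. By width it stood at percentile 8.98 of all WT-specific peaks, near the narrow end of the list.

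Lif, a cytokine that signals through the LIF receptor and STAT3, had the widest peak of the set. The gene lies at chr11:4257568-4272514 (RefSeq gene 16878, 14.9 kb). Its WT-specific peak of 1160 bp, at chr11:4266523-4267682, was at percentile 95.7 of widths and held no repeat. The annotation called it promoter, but its midpoint lay 9.53 kb after the gene start that the promoter window gives and inside the gene, at 63.8% of its length. Lif was also the gene with the most KO peaks. A WT peak of 738 bp at chr11:4261304-4262041 lay whole inside a KO peak of 845 bp, and KO peaks of 284 bp and 234 bp had no WT peak on them. The nearer of these 2 was 2.35 kb from the WT-specific peak. Antibody signal in cells without p53 was thus present in the same gene, while no KO peak fell on the 1160 bp interval itself.

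Met encodes the receptor tyrosine kinase for hepatocyte growth factor. The gene spans chr6:17463349-17573980 (RefSeq gene 17295, 111 kb), and 3 WT peaks lay in it. The WT-specific one, 253 bp at chr6:17463607-17463859, was the promoter peak whose sequence is shown above. Its midpoint lay 0.224 kb before the gene start that the promoter window gives, and inside the RefSeq span, which begins further upstream. It held no repeat and stood 35.1 kb from the nearest KO peak. A WT peak of 202 bp, 15.3 kb after the start, had no KO peak and was not on the WT-specific list. Another WT peak of 517 bp, 35.3 kb after the start, shared 442 bp with a KO peak of 445 bp. The 3 WT peaks of Met therefore fell into 3 kinds, only the first of which was called WT-specific.

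Fgfr2, a receptor tyrosine kinase for fibroblast growth factors, differed from the others. No WT, KO or WT-specific peak lay within 5 kb of its RefSeq span, chr7:130162451-130266808 (RefSeq gene 14183, 104 kb, minus strand). The deposited annotation nevertheless placed 3 WT-specific peaks in Fgfr2 introns. A peak of 263 bp at chr7:130288889-130289151 lay 22.1 kb outside the span, on the upstream side and within the RefSeq gene Gm33555. The second, 408 bp at chr7:130530941-130531348, lay 264 kb outside and within 5 kb of Nsmce4a. The third, 853 bp at chr7:132729133-132729985, lay 2.46 Mb outside and within Fam53b. There were 26 protein-coding RefSeq genes wholly between the Fgfr2 span and the end of that peak. All 3 WT-specific peaks in this 2.46 Mb carried the Fgfr2 label, and none overlapped a KO peak.

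Such distant labels were uncommon. Of 831 WT-specific peaks whose label matched a RefSeq symbol on the same chromosome, 25 (3.01%) lay more than 5 kb outside the span of that gene, among them 22 of 531 intronic and 0 of 216 promoter labels. The 2 farthest of the 25 were Fgfr2 peaks. The gene models behind the labels are not named in the sources used here. The 3 peaks are counted below by the rule, and values without them are given where they move a result.

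**Figure D2:**
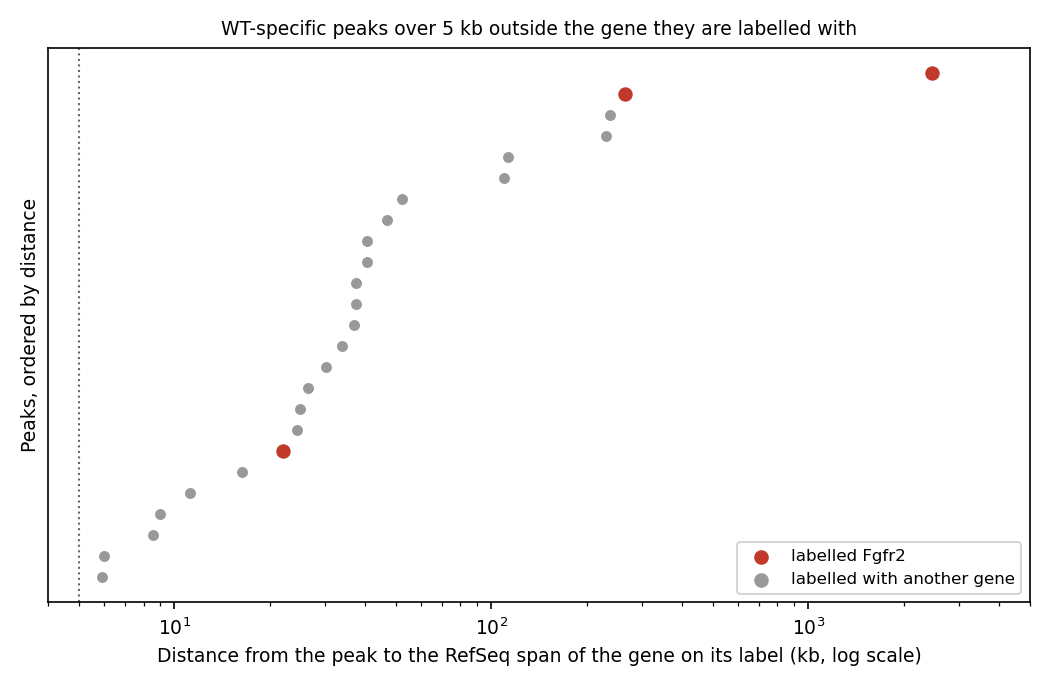
Distance in kb, on a log axis, from each of the 25 WT-specific peaks that lie more than 5 kb (dotted line) outside the RefSeq span of the gene on their label. Peaks are ordered by distance. Red points are the 3 peaks labelled Fgfr2, at 22.1, 264 and 2462 kb, and grey points carry other labels.

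Ptk7 encodes a pseudokinase receptor of planar cell polarity and Wnt signalling. Of the 8 genes it was the only one with both promoter and intronic WT-specific peaks (RefSeq gene 71461, chr17:46564451-46630049, 65.6 kb, minus strand). The promoter peak of 361 bp, at chr17:46629729-46630089, had its midpoint 0.405 kb before the gene start that the promoter window gives. An intronic peak of 200 bp, at chr17:46623983-46624182, lay 5.42 kb after the start and was the narrowest of the 18. The other intronic peak, 311 bp at chr17:46609895-46610205, lay 19.5 kb after the start and contained the whole of a KO peak of 249 bp, 80.1% of its own width. The WT-specific label therefore did not mean absence of KO signal at this site. None of the 3 held a repeat. The RefSeq gene Klc4 also lay within 5 kb of the promoter peak. Promoter and near intron were 5.55 kb apart, and the intronic pair 13.8 kb.

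Lrp1, a large endocytic receptor of the LDL receptor family, was the only gene with a 5' UTR peak and the only one whose every WT-specific peak held a repeat. It lies at chr10:127538157-127621148 (RefSeq gene 16971, 83.0 kb, minus strand). The peak in the 5' UTR class was 573 bp wide, at chr10:127609825-127610397, and its midpoint was 11.0 kb after the start. A MIRc element, an old SINE, took up 121 bp of it (21.1%). An intronic peak of 361 bp at chr10:127592665-127593025 overlapped an L2a element, an old LINE, over 100 bp (27.7%), and a KO peak of 189 bp lay whole inside it. The remaining intronic peak of 434 bp, at chr10:127590807-127591240, held 52 bp of a G-rich low complexity stretch (12.0%). These intronic peaks were 1.42 kb apart. A WT peak of 262 bp, 76.8 kb after the start, had no KO peak and was not on the WT-specific list.

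Nectin1 encodes an immunoglobulin-type adhesion molecule of adherens junctions, and its peaks were the plainest of the set. It had 3 WT peaks in the gene (RefSeq gene 58235, chr9:43737075-43807461, 70.4 kb), all of them WT-specific, intronic and without repeat. Their widths were 218 bp at chr9:43755794-43756011, 388 bp at chr9:43777665-43778052 and 421 bp at chr9:43797012-43797432. They stood 21.7 kb and 19.0 kb apart, and the RefSeq gene Gm46108 overlapped the peaks of 218 and 388 bp. No KO peak lay within 5 kb of Nectin1. Just outside that limit, 7.15 kb from the lower-coordinate end, a WT peak of 292 bp overlapped a KO peak of 505 bp, and these were the nearest peaks beyond the limit at any of the 8 genes. Every peak inside the limit lay in or touched the span of its gene.

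Antxr1, the longest gene, encodes a surface receptor for collagen VI that also binds anthrax toxin. It had the most WT peaks, 8 in 202 kb (RefSeq gene 69538, chr6:87133853-87335809). The 3 WT-specific peaks were intronic and free of repeats. They measured 257 bp at chr6:87190069-87190325, 281 bp at chr6:87223188-87223468 and 542 bp at chr6:87224629-87225170. The last pair was 1.16 kb apart, the closest spacing in the set, and both peaks of that pair overlapped the RefSeq gene Gm38851. A further 4 WT peaks, of 504, 250, 490 and 412 bp, had no KO peak nearer than 57.2 kb and yet were not on the WT-specific list. Of these, 3 were wider than 2 of the 3 peaks that were listed. Across the whole WT list, 712 of 6811 peaks had no overlapping KO peak and were not on the WT-specific list. The eighth WT peak of Antxr1, 206 bp near the higher-coordinate end, lay inside a KO peak of 757 bp. Absence of a called KO peak and the WT-specific label thus did not coincide at Antxr1. KO signal below a called peak could not be seen in these lists.

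**Figure D3:**
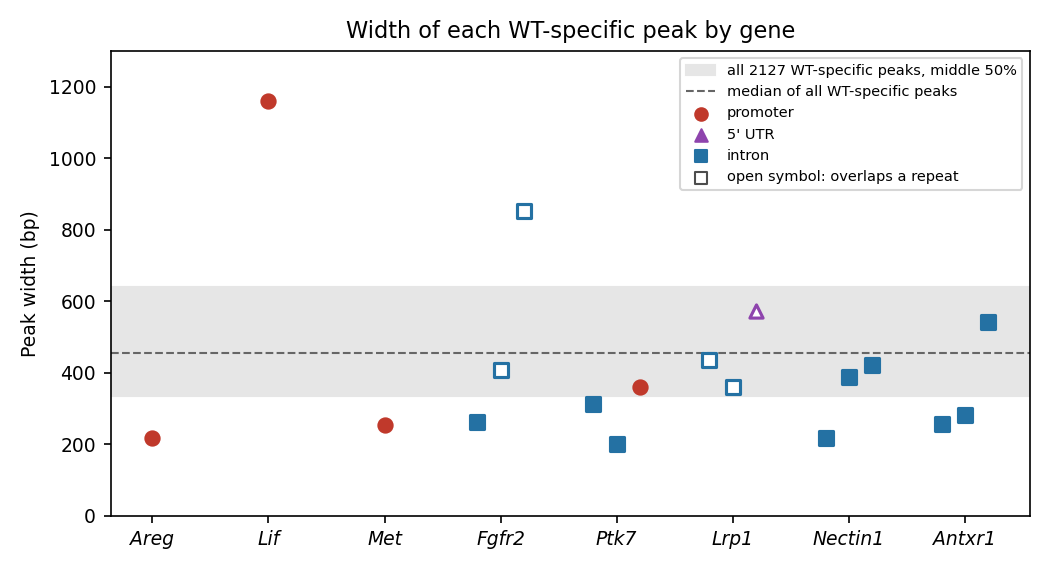
Width in bp of each of the 18 WT-specific peaks by gene, with symbol shape for feature class and open symbols for peaks that overlap a repeat. The grey band is the middle 50% of all WT-specific peaks and the dashed line their median of 454 bp. Of the 18 peaks, 14 are narrower than that median, and Lif at 1160 bp is the widest.

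Across the 18 peaks the median width was 361 bp (95% interval from order statistics 257 to 434), with a range of 200 to 1160 bp. All WT-specific peaks had a median of 454 bp (444 to 465). Of the 18, 14 were narrower than that. Repeats move with width in the whole list: the 683 WT-specific peaks without a repeat had a median of 373 bp, and the 13 without one at these genes had a median of 281 bp (218 to 421). Intronic peaks without a repeat had a median of 359 bp over the whole list (n = 251). The part of repeat content in the width of the 18 was not tested.

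By position, 72.2% of the 18 peaks were intronic (95% exact binomial interval 46.5 to 90.3), and 22.2% were in the promoter class (6.41 to 47.6). The shares over all WT-specific peaks were 31.6% and 15.2%. Those include 1004 intergenic peaks, a class that a gene label leaves out. Among the 1123 other peaks, introns held 59.9% and promoters 28.9%, both inside the intervals of the 18. Without the Fgfr2 peaks, 10 of 15 were intronic and 4 of 15 promoter. The promoter class includes the Lif peak, whose midpoint lay 9.53 kb after the gene start and which did not reach the promoter window. Several peaks share a gene, so the intervals cover counting error only and are too narrow for independent genes.

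A repeat was listed for 5 of the 18 peaks, 27.8% (9.69 to 53.5), against 54.8% (51.8 to 57.7) of the 1123 and 67.9% of all 2127. The 5 were 3 peaks at Lrp1 and 2 labelled Fgfr2. Because peaks share genes and the genes were chosen, these intervals are too narrow and the lower share is description only. In introns a repeat was listed for 4 of 13 (30.8%, 9.09 to 61.4), against 62.7% of 673. None of the 4 promoter peaks held a repeat, against 40.4% of 324. Long terminal repeats, the ends of endogenous retroviruses, were in 29.6% of the 1123 peaks and in 1 of the 18. That 1 was the Fgfr2-labelled peak 264 kb from the gene, on an RLTR1B element of the ERV1 family that filled 322 bp of it (78.9%). Without the Fgfr2 peaks, 3 of 15 held a repeat, all at Lrp1, and none an LTR. An LTR count of 0 of 15 has an exact binomial upper bound of 21.8%. RLTR1B was the only repeat that covered most of its peak. The others covered 6.57% to 27.7%.

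**Figure D4:**
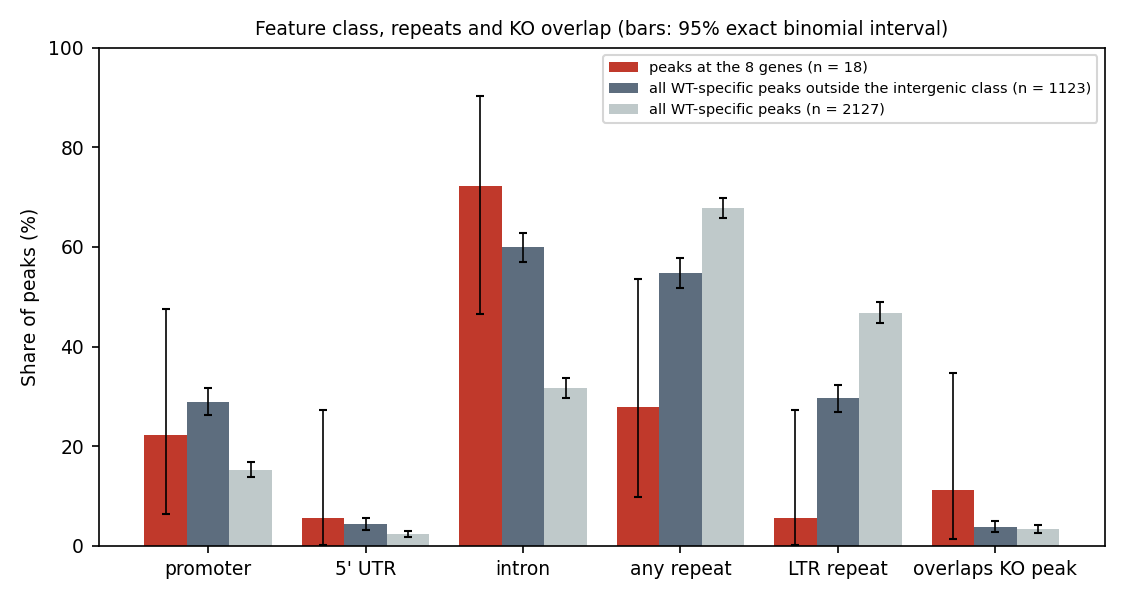
Share of peaks in percent for 3 feature classes, any repeat, LTR repeats and overlap with a KO peak, for the 18 peaks at the 8 genes, all 1123 WT-specific peaks outside the intergenic class and all 2127. Error bars are 95% exact binomial intervals. The 18 peaks sit lower for repeats (27.8% against 54.8%) and have wide intervals throughout. Those with a repeat are all at Lrp1 or labelled Fgfr2, so the difference is description only.

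Set beside other genes, the number of peaks per gene was high, which is what the choice of genes fixed. Of 21900 protein-coding RefSeq genes, 4.93% had a WT-specific peak within 5 kb, and 7 of the 8 genes did. Only 0.0776% (17 genes) had 3 or more, among them Ptk7, Lrp1, Nectin1 and Antxr1. By the deposited labels, 16 of 997 gene names (1.60%) were on 3 or more peaks, and 5 of these 16 were the genes described here. WT peaks of any kind were within 5 kb of 13.0% of protein-coding genes and of 7 of the 8. KO peaks were within 5 kb of 15.9% of protein-coding genes and of 5 of the 8. Lif had 3, and Met, Ptk7, Lrp1 and Antxr1 had 1 each. This count is not independent of the choice of genes. The KO peaks of Ptk7 and Lrp1 lay inside WT-specific peaks, and those of Met and Antxr1 overlapped other WT peaks. A KO peak with no WT peak on it was near 10.9% of protein-coding genes and near 1 of the 8, Lif. These 8 are mostly long genes, and length was not taken into account in the shares. Overlap of a WT-specific peak with a KO peak, 2 of 18 (11.1%, 1.38 to 34.7), had an interval that took in the 3.34% of the whole list.

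In the counts of WT-specific, WT and KO peaks within 5 kb, 3 of the genes had no equal among protein-coding genes: Ptk7 (3, 3 and 1), Lrp1 (3, 4 and 1) and Antxr1 (3, 8 and 1). Nectin1 (3, 3 and 0) shared its counts with 8 genes. The nearest to its summed width of 1027 bp were Macrod2 (1326 bp), Plekha7 (621 bp) and Ddit4 (2029 bp). Met (1, 3 and 1) shared its counts with 7 genes and Lif (1, 2 and 3) with 11. Areg (1, 1 and 0) shared them with 610. Fgfr2, with no peak of any list in its window, shared its counts with 17515 genes, 80.0% of protein-coding genes.

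Relatives of the 8 genes in the same families were 96 ligands, receptors and partners listed from general knowledge. A WT-specific peak lay within 5 kb of 6 of them (6.25%), near the 4.93% of protein-coding genes, and each had 1 peak. In the EGF family, 2 of 14 had one: the receptor Egfr, whose intronic peak of 634 bp overlapped a KO peak, and Adam17, the protease that sheds amphiregulin, with an intronic peak of 196 bp. In the LIF family it was 1 of 14, the gene of the related receptor subunit Il6ra (229 bp, intronic). Among the nectin relatives 2 of 12 had one. They were Afdn, encoding the nectin-binding protein afadin, with a peak of 424 bp in the 3' UTR class that was labelled Mllt4, and Cadm2, an adhesion molecule, with an intronic peak of 430 bp. In the LDL receptor family 1 of 12 had one, Lrp1b, whose intronic peak of 297 bp held a GA-rich stretch and overlapped a KO peak. No relative of Met (7 genes), Fgfr2 (16), Ptk7 (16) or Antxr1 (5) had a WT-specific peak. Over the whole EGF family list, 8 of the 14 relatives of Areg had a WT peak within 5 kb and 10 had a KO peak, where Areg had 1 WT peak and no KO peak.

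Relatives with WT or KO peaks of any kind were more frequent. A WT peak was within 5 kb of 33 of 96 (34.4%, against 13.0% of protein-coding genes) and a KO peak within 5 kb of 38 (39.6%, against 15.9%). Of the 33, 28 also had a KO peak within 5 kb, whether or not it overlapped the WT peak. The same share over all protein-coding genes with a WT peak was not computed. Counted by peak, 4043 of all 6811 WT peaks overlapped a KO peak. Over the 96, the shares with a WT and with a KO peak were above the background of all protein-coding genes. The share with a WT-specific peak was near it. Families differed: relatives of Fgfr2 were below the background for both, at 6.25% for WT and 12.5% for KO peaks. Relatives of Antxr1 had no WT peak and 40% had a KO peak, and every other family was above the background for both. Gene length was not taken into account here either, and the list of relatives was chosen by hand.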

How the data were processed

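Peak lists of the p53 antibody in ID8 cells (2 WT and 2 KO samples) were used, with feature and repeat annotations of the WT-specific list, 6 tables in all. Per the file headers, the deposited values are positions, names and classes of peaks, with no other unit. The tools fastp, Bowtie2, MACS2 and deepTools and the build mm10 appear in the submitters' processing notes. Not stated there or in the labels are versions, the pooling of replicates, the rule for WT-specific peaks, the promoter definition and the annotation tools. The histone and IgG libraries were not analysed here.

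Starts were read as 0-based and are printed 1-based. Peaks were compared at a minimum overlap of 1 bp and assigned by label or by RefSeq span (GRCm38.p6) with 5 kb on each side. A distance is measured between the nearest ends of 2 intervals, or from a peak midpoint to the gene start. Python 3.11.15, numpy 2.4.6, scipy 1.17.1 and matplotlib 3.10.9 were used, and the overlap code was tested on simulated data. Intervals are 95%, exact binomial (Clopper-Pearson) for shares. Enrichment was not tested. Named genes were all 8, and the relatives and markers on the fixed lists with a WT-specific peak. Only some of the RefSeq genes that neighbour their peaks were named. For likeness, up to 3 genes with equal counts were named. A further 3 names in the closing section were picked after their values were seen. Members, gene lists and rules were chosen with earlier results of these data known. Window, overlap, list, label and repeat settings were varied.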

Additional observations from a re-analysis of the deposited data

How the results depend on the processing

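With the longer 50% of each list (454 bp or more for WT-specific and 345 bp or more for KO peaks), 4 of the 8 genes and 4 of the 18 WT-specific peaks were left, at Lif, Fgfr2, Lrp1 and Antxr1, and 3 of 7 KO peaks. The lists hold no score, so a stricter set could be made by width only. Where a repeat had to cover 50% of the peak, the share with a repeat was 5.56% in place of 27.8%, since 1 of the 5 repeats covered that much. All other alternatives run for the 7 results gave counts within 1.5 times of the reported ones, or shares and a median within their intervals. Some of these could not differ. All 18 WT-specific peaks carry the label of their gene, and the settings with no window, with 1 kb and with the label alone kept labelled peaks. Their results for WT-specific peaks were fixed in advance and say nothing about stability. Without the deposited label, 7 genes with 15 peaks were left, since the Fgfr2 peaks rest on the label alone. That setting and those without Fgfr2 were chosen after seeing the data. Taking every WT peak without a KO peak gave 22 peaks with a median of 374 bp. No paired analysis was possible because each genotype has 1 list with no replicate columns, and for the same reason no replicate could be left out. Unknown read depth means that a missing peak cannot be read as absence of p53.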

Other observations

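Marker genes of epithelium and of other cell types were counted in the same windows. Of 12 epithelial and mesothelial markers, 1 had a WT-specific peak within 5 kb, Krt19, a keratin gene, with a peak of 373 bp that the annotation called intergenic. WT peaks were near 6 of the 12 and KO peaks near 7. None of the 8 leukocyte markers had a WT or WT-specific peak, and 1 had a KO peak. Of 8 fibroblast and endothelial markers, 1 had a WT-specific peak, Col1a1, a collagen gene, with 726 bp labelled as promoter of Gm24877 and overlapping a KO peak. WT peaks were near 2 of these 8 and KO peaks near 1. The shares over all protein-coding genes were 4.93% for WT-specific, 13.0% for WT and 15.9% for KO peaks. These counts show contacts of the antibody and not which cells were present.

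Other gene names on 3 or more WT-specific peaks were 11, led by Syn3, a synapsin gene, with 7 intronic peaks. Bcl2l1, which encodes an inhibitor of apoptosis, and Ephx1, an epoxide hydrolase, had 3 intronic peaks each. These 3 were picked after their values were seen.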
